A study of Mus musculus with 12 samples.

Results

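The 10 genes described here are myeloid genes that early blood progenitors can carry at low level before they commit to a lineage: the receptors Csf1r, Csf2rb and Csf3r, the adaptor Tyrobp, the granule genes Mpo, Elane and Prtn3, the oxidase gene Ncf1 and the transcription factor genes Sfpi1 and Cebpa. They were found by symbol, all 10 among the 23420 genes of the deposited expression table, and 6 of them were among the 4542 genes that could be tested. The study measured RNA in 12 libraries from mouse fetal liver, 3 in each of 4 groups, named by the sample titles PIR+ KO, PIR+ wt, PIR- KO and PIR- wt. PIR stands for the paired immunoglobulin-like receptors, the activating ones from the Pira genes and the inhibitory PIR-B from Lilrb3. All 4 groups held lineage-negative c-Kit+ cells of the liver, isolated on a cell sorter, with 100 cells to a tube, ERCC spike-in RNA and an oligo-dT primer that carried a molecular barcode. In PIR+ KO and PIR- KO the labels record a knockout and name no gene for it, so the targeted gene could not be checked. In PIR+ wt and PIR- wt the genotype is wild type, and the strain is given for none of the groups. The markers field of the labels gives IL7Ra+ for every library, while the series title calls PIR- cells IL7R-. No label says that the 3 libraries of a group come from separate embryos, so the spread between them may be technical. Each limma p-value takes its spread largely from all fitted genes at a like level, so it can understate the spread of a single gene.

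The titles and the markers field carry the same PIR sign in 6 of the 12 libraries and opposite signs in the others. The source name gives the stage E12.5 (embryonic day) to libraries whose markers field reads PIR+ and E14.5 to those whose field reads PIR-, while the series title names E12.5 alone, so the stage is no independent record. Groups were taken from the titles, and the receptor genes followed them. Pira2 averaged 15.9 ± 7.53 in PIR+ KO and 32.3 ± 3.81 in PIR+ wt libraries (SD, n = 3 each), Lilrb3 averaged 9.07 ± 3.01 in PIR+ KO and 11.7 ± 2.42 in PIR+ wt libraries, and both were listed at 0 in all 6 PIR- libraries. Kit averaged 46.1 in PIR+ KO, 43 in PIR+ wt, 25 in PIR- KO and 21.1 in PIR- wt libraries. Il7r was between 9.7 and 24.4 in all 12 libraries.

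Progenitors of the fetal liver are known to transcribe genes of several lineages at low level, a state called lineage priming. PU.1, the product of Sfpi1, and C/EBPα, the product of Cebpa, are the transcription factors that open the myeloid program, and PU.1 is also needed for early B cell development. Their known targets include the receptors of the colony-stimulating factors, through which monocytes and neutrophils are produced, and the genes of the primary granules and of the NADPH oxidase, with which those cells kill microbes.

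Values are those the authors deposited, read here as normalized molecule counts, without a common library total: the sums ran from 155374 to 284648 per library, which correspond to an estimated 208195 to 442533 molecules. A value of 1 molecule was 0.49 to 0.775, so values of a few units rest on a few molecules. Summed over the 10 genes, the value was 302 ± 82.6 in PIR+ KO, 325 ± 51.4 in PIR+ wt, 79.2 ± 14.1 in PIR- KO and 28.1 ± 15.4 in PIR- wt libraries (SD, n = 3 each). As a share of the library sum, the 10 genes made up 0.121% ± 0.0159 in PIR+ KO, 0.142% ± 0.0106 in PIR+ wt, 0.0418% ± 0.0108 in PIR- KO and 0.0172% ± 0.0107 in PIR- wt libraries. The sum was therefore carried mostly by PIR+ libraries of either genotype, and among PIR- libraries more by KO than by wt. It is weighted to the genes of highest level and does not speak for each gene. Elane was listed at 0 in all PIR+ libraries and rested on an estimated 3 molecules in PIR- KO and 1 molecule in PIR- wt libraries, too few to give it a direction. These are bulk libraries, in which fewer cells of a type and less RNA per cell cannot be told apart.

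**Figure D1:**
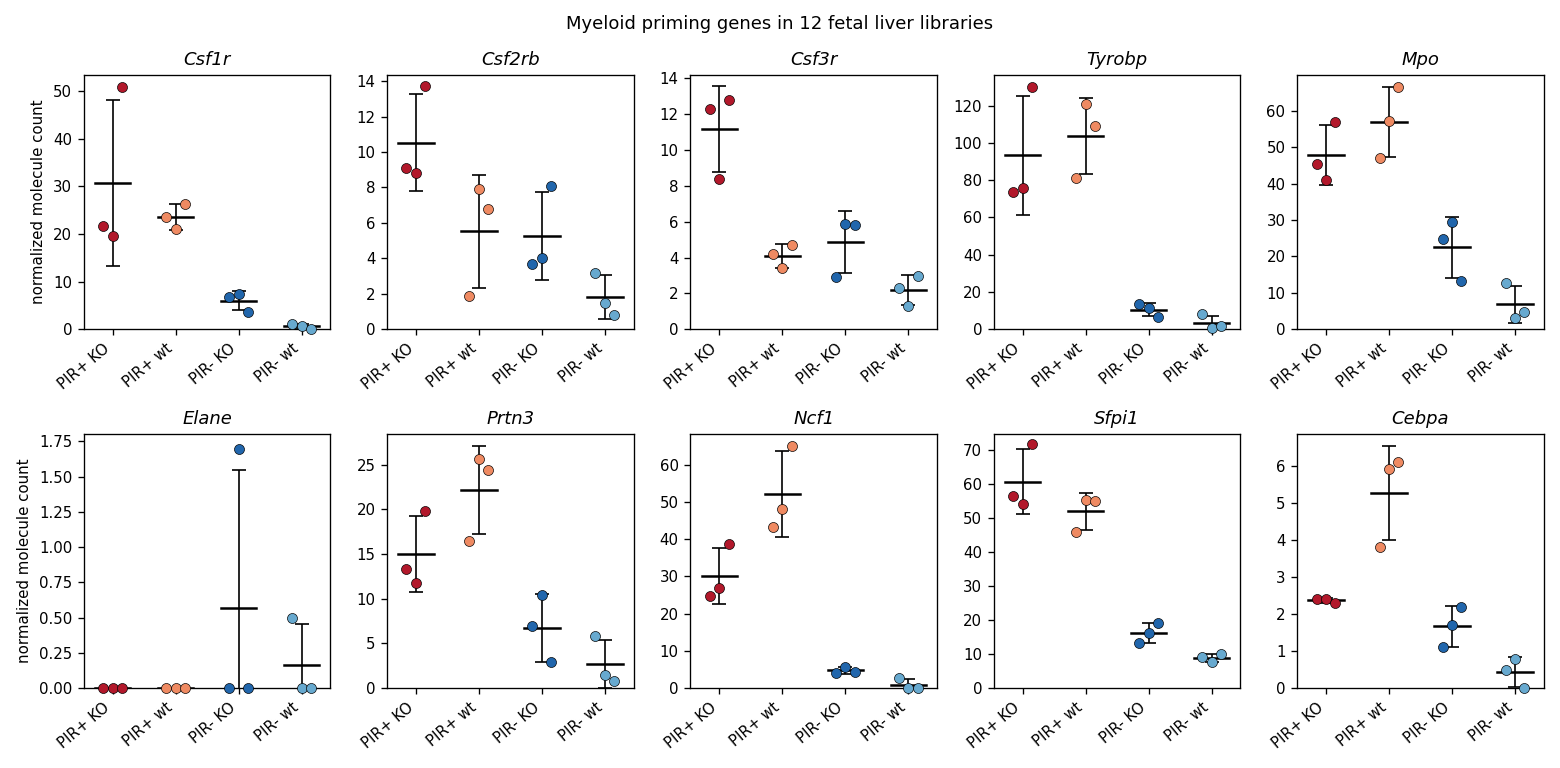
Normalized molecule count of each of the 10 genes (y axis, linear, a scale for each gene) in the 3 libraries of each group (x axis); points are libraries in replicate order, the bar is the mean and the whiskers are 1 SD, cut at 0 where they would pass below it. Csf1r, Tyrobp, Mpo, Prtn3, Ncf1 and Sfpi1 sit higher in all PIR+ libraries than in all PIR- libraries, and Elane is listed at 0 in all 6 PIR+ libraries.

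Csf1r, the receptor of macrophage colony-stimulating factor (chr18:61100598-61132149, GRCm38, plus strand), was 21.8, 19.6 and 50.9 in the PIR+ KO libraries and 23.5, 21 and 26.4 in the PIR+ wt libraries. It was 6.9, 7.5 and 3.7 in the PIR- KO libraries and 1.1, 0.8 and 0 in the PIR- wt libraries. Replicate 3 of PIR+ KO stood well above the other 5 PIR+ libraries, no PIR+ library overlapped a PIR- library, and each PIR- KO library exceeded each PIR- wt library. The 3 PIR- wt values rest on an estimated 2, 1 and 0 molecules. Csf1r in PIR- cells was 19.6% of its PIR+ level in KO and 2.68% in wt. The limma fold change of PIR+ over PIR-, on the log2(value + 1) scale used throughout, was 2.09 ± 0.35 in KO (SE, adjusted p = 8.21e-07) and 3.98 ± 0.35 in wt (adjusted p = 6.69e-18). From the molecules, adjusted for the value of a molecule in each library, PIR+ wt exceeded PIR- wt 35.2-fold. The exact 95% interval of 11.7 to 173 covers counting error only. Reads of Csf1r may include some of Hmgxb3, which lies on the other strand and was at 2.3 to 11.1, since the sources used here do not say whether counting used strand.

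Csf2rb, the common beta chain of the receptors of GM-CSF, IL-3 and IL-5 (chr15:78325752-78353847, plus strand), was 9.1, 8.8 and 13.7 in PIR+ KO and 1.9, 7.9 and 6.8 in PIR+ wt libraries. It was 3.7, 4.0 and 8.1 in PIR- KO and 3.2, 1.5 and 0.8 in PIR- wt libraries. The 3 PIR+ KO libraries were the highest of the 12, and PIR+ wt overlapped both PIR- groups. Csf2rb2, a close paralog whose reads can be confused with those of Csf2rb, was between 0 and 3.0. Csf2rb was too low for the test, and a limma fit over all 14177 genes above 0 gave 0.92 (adjusted p = 0.219) for PIR+ over PIR- in KO and 1.14 ± 0.45 (adjusted p = 0.0887) in wt.

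Csf3r, the receptor of granulocyte colony-stimulating factor (chr4:126024550-126044440, plus strand), was 12.3, 8.4 and 12.8 in PIR+ KO and 4.2, 3.4 and 4.7 in PIR+ wt libraries. It was 2.9, 5.9 and 5.8 in PIR- KO and 2.3, 1.3 and 3.0 in PIR- wt libraries. PIR+ KO was again the highest group with no overlap, and PIR+ wt and PIR- KO overlapped. In the fit without a filter the fold change of PIR+ over PIR- was 1.08 ± 0.37 in KO (adjusted p = 0.0748) and 0.70 ± 0.37 in wt (adjusted p = 0.214). In Csf2rb and Csf3r the PIR+ wt and PIR- KO libraries thus overlapped, which they did not in Csf1r.

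Tyrobp encodes DAP12, an adaptor with an ITAM that passes on signals of activating receptors in myeloid and natural killer cells (chr7:30413760-30417585, plus strand). It was 73.9, 75.9 and 130.0 in PIR+ KO and 81.2, 121 and 109.1 in PIR+ wt libraries. It was 13.8, 11.5 and 6.6 in PIR- KO and 8.0, 0.8 and 1.6 in PIR- wt libraries. Both PIR+ groups overlapped each other and stood clear of every PIR- library, and replicate 1 of PIR- wt lay within the range of PIR- KO. Tyrobp was higher in PIR+ by 3.02 ± 0.29 in KO (limma, adjusted p = 1.17e-15) and by 4.89 ± 0.29 in wt (adjusted p = 8.73e-29). In wt that SE was 0.38 after median-of-ratios scaling of the libraries and 0.40 in the fit without a filter. Its level in PIR- cells was 11.4% of that in PIR+ cells in KO and 3.34% in wt.

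Mpo, myeloperoxidase of the primary granules (chr11:87793581-87804413, plus strand), was 45.4, 41.1 and 57.0 in PIR+ KO and 47.0, 57.2 and 66.4 in PIR+ wt libraries. It was 24.9, 29.4 and 13.2 in PIR- KO and 12.7, 3.1 and 4.7 in PIR- wt libraries. The PIR+ groups overlapped each other and lay above both PIR- groups, and PIR- KO cleared PIR- wt by a narrow margin, 13.2 against 12.7. Mpo in PIR- cells was 47% of its PIR+ level in KO and 12% in wt. PIR+ exceeded PIR- by 1.11 ± 0.27 in KO (limma, adjusted p = 0.00079) and by 3.07 ± 0.27 in wt (adjusted p = 6.48e-18). The KO difference was no longer called after median-of-ratios scaling of the libraries (0.72, adjusted p = 0.139).

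Prtn3, which encodes proteinase 3, a serine protease of the primary granules (chr10:79874476-79883174, plus strand), was 13.3, 11.8 and 19.8 in PIR+ KO and 16.5, 25.6 and 24.4 in PIR+ wt libraries. It was 6.9, 10.4 and 2.9 in PIR- KO and 5.8, 1.5 and 0.8 in PIR- wt libraries. All PIR+ libraries exceeded all PIR- libraries, and within each PIR sign the genotypes overlapped. The fold change of PIR+ over PIR- was 1.15 ± 0.36 in KO (limma, adjusted p = 0.0122) and 2.86 ± 0.36 in wt (adjusted p = 1.06e-10). The KO call was lost after scaling (0.77, adjusted p = 0.252), without a filter (adjusted p = 0.0979), without replicate 3 of PIR+ KO (0.94, adjusted p = 0.127) and without replicate 3 of PIR- KO (0.72, adjusted p = 0.131).

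Elane, neutrophil elastase (chr10:79886247-79888215, plus strand), starts 3072 bases past the end of Prtn3 on the same strand. It was listed at 0 in all 6 PIR+ libraries, at 0, 1.7 and 0 in PIR- KO and at 0.5, 0 and 0 in PIR- wt libraries, an estimated 3 molecules and 1 molecule. A count of 0 allows a value of up to 1.47 to 2.28 in a PIR+ KO library and 1.9 to 2.03 in a PIR+ wt library (3 molecules, counting error only). Elane was thus not detectable at this depth in the libraries in which Prtn3 was at 11.8 to 25.6. In the fit without a filter, PIR+ over PIR- was -0.48 ± 0.29 in KO (limma, adjusted p = 0.34) and -0.19 ± 0.29 in wt (adjusted p = 0.689). Ctsg, which encodes cathepsin G, a related granule protease, was listed at 0 in all 12 libraries.

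The promoters of Mpo, Prtn3 and Ncf1, which were all higher in PIR+ libraries, and of Elane, which was not detected there, are shown so that their motifs can be set side by side. RefSeq (GRCm38.p6) gave a promoter for 6 of the 10 genes, namely Csf3r, Mpo, Elane, Prtn3, Ncf1 and Cebpa. The 250 bases before the start were searched on both strands for GAGGAAG, a core form of the PU.1 motif, TTGCNNAA, a C/EBP motif, and TGTGGT, a Runx motif. The first was found in 4 of the 6, Csf3r, Mpo, Elane and Prtn3, against 10.4% of 27025 promoters, and the other 2 motifs in none of the 6, against 9.55% and 14.2% of all promoters. GAGGAAG begins 247 and 224 bases before the start in Mpo, 95 bases before it in Prtn3, 85 in Elane and 86 in Csf3r. The RefSeq starts of Mpo, Prtn3, Elane and Csf3r lie downstream of the GENCODE starts given with each gene, that of Prtn3 well inside the GENCODE gene, so their printed promoters overlap the GENCODE genes. The motif GAGGAAG is in capitals in the sequences that follow, each written 5′ to 3′ on the strand of its gene, for Mpo (chr11:87793534-87793783, plus), Prtn3 (chr10:79879417-79879666, plus), Elane (chr10:79886062-79886311, plus) and Ncf1 (chr5:134229626-134229875, minus). Elane was added after its values were seen. A match of letters is a description and no evidence of binding.
Mpo: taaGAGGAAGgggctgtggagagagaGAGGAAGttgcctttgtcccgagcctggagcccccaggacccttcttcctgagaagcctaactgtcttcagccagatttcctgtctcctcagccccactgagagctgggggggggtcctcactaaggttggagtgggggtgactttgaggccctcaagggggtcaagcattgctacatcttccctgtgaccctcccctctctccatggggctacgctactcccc
Prtn3: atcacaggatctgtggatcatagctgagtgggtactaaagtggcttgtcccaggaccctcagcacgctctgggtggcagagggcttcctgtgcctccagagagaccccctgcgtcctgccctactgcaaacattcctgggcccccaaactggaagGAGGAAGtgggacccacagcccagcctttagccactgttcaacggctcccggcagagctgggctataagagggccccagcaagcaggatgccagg
Elane: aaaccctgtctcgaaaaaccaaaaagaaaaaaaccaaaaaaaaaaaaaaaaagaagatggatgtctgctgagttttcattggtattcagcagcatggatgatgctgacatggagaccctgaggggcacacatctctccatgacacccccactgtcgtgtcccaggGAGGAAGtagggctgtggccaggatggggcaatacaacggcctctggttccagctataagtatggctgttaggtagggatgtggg
Ncf1: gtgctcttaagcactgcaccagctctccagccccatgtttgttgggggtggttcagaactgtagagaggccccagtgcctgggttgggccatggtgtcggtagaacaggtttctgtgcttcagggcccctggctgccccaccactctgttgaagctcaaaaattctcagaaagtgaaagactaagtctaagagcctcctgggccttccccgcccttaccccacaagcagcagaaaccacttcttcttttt

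Ncf1, which encodes p47phox, the organizer subunit of the phagocyte NADPH oxidase (chr5:134220053-134229625, minus strand), was 24.8, 26.9 and 38.8 in PIR+ KO and 43.2, 48.0 and 65.1 in PIR+ wt libraries. It was 4.2, 5.8 and 4.4 in PIR- KO and 2.7, 0 and 0 in PIR- wt libraries. No groups overlapped, and PIR+ wt was the highest. Ncf1 in PIR- cells was 15.9% of its PIR+ level in KO and 1.73% in wt, where the 3 libraries held an estimated 5, 0 and 0 molecules. The fold change of PIR+ over PIR- was 2.41 ± 0.34 in KO (limma, adjusted p = 5.51e-09) and 5.08 ± 0.34 in wt (adjusted p = 3.39e-25). In wt it was 7.40 with 0.1 and 3.29 with 5 added to each value in place of 1. Adjusted as for Csf1r, the ratio of PIR+ wt to PIR- wt molecules was 46.3, with an exact 95% interval of 19.6 to 144 for counting error. Gtf2ird2, on the other strand, was at 0.6 to 3.4. Mpo, Prtn3 and Cebpa also overlap a gene on the other strand, which was not used here.

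Sfpi1, the gene of PU.1 (Spi1 in GENCODE, chr2:91082390-91115756, plus strand), was 56.3, 53.9 and 71.5 in PIR+ KO and 45.7, 55.2 and 54.9 in PIR+ wt libraries. It was 13.2, 16.1 and 19.1 in PIR- KO and 9.0, 7.7 and 10.1 in PIR- wt libraries. The PIR+ groups overlapped and lay above both PIR- groups, which did not overlap each other. Its lowest value, 7.7, was well above that of 1 molecule. PIR+ exceeded PIR- by 1.85 ± 0.24 in KO (limma, adjusted p = 2.71e-10) and by 2.42 ± 0.24 in wt (adjusted p = 1.97e-15). Its level in PIR- cells was 26.6% of that in PIR+ cells in KO and 17.2% in wt.

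Cebpa, the gene of C/EBPα (chr7:35119293-35121928, plus strand), was 2.4, 2.4 and 2.3 in PIR+ KO and 3.8, 5.9 and 6.1 in PIR+ wt libraries. It was 1.1, 1.7 and 2.2 in PIR- KO and 0.5, 0.8 and 0 in PIR- wt libraries. The groups did not overlap, but the libraries hold few molecules, an estimated 12 over the 3 PIR+ KO, 24 over the PIR+ wt, 8 over the PIR- KO and 2 over the PIR- wt libraries. Adjusted as for Csf1r, the ratio of PIR+ wt to PIR- wt molecules was 11.7, with an exact 95% interval of 2.91 to 102 for counting error. In the fit without a filter, PIR+ exceeded PIR- by 2.15 ± 0.42 in wt (limma, adjusted p = 0.00134), and the value in KO was 0.36 (adjusted p = 0.649).

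Set against all genes, PIR+ over PIR- in KO was called higher for the 6 tested members, where 22.5% of all tested genes were, and in wt likewise for 6, where 40.6% were. These 6 members reached the minimum level mainly through the PIR+ libraries, in which they are high, so that their count and median are a description only. After scaling, which lowers those shares to 8.12% in KO and 11.5% in wt, 4 members were called in KO and 6 in wt. Libraries did not overlap, with PIR+ higher, for 9 of 10 members in KO against 20.7% of all genes above 0, and for 8 of 10 in wt against 25.8%. The median fold change of the tested members was 1.97 in KO and 3.52 in wt, against 0.39 and 0.51 over all tested genes, and 1.58 and 3.13 after scaling, against 0.01 and 0.02. PIR+ libraries also held more estimated molecules, 374291 to 442533 in KO against 302993 to 326039 in PIR- KO, and 320150 to 374015 in wt against 208195 to 292883 in PIR- wt, and the part of depth in these results was not tested. With the 5 globin-rich libraries left out and 1 PIR- wt library remaining, the log2 fold changes of PIR+ over PIR- in wt were 3.48 for Tyrobp, 3.65 for Ncf1, 3.47 for Csf1r, 1.95 for Mpo, 1.67 for Prtn3 and 2.36 for Sfpi1, all still called. The authors' deposited table gives p-values for PIR+ wt against PIR- wt of 7.68e-25 for Tyrobp to 1.87e-05 for Prtn3 over these 6 genes, 0.0281 for Cebpa, 0.258 for Csf2rb and 0.585 for Csf3r.

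Between PIR+ KO and PIR+ wt libraries no tested member passed in either direction, where 0.44% of all tested genes were called higher and 0.462% lower. The fold changes of KO over wt were 0.24 ± 0.35 for Csf1r (limma, adjusted p = 0.977), -0.18 ± 0.29 for Tyrobp (adjusted p = 0.982), -0.24 ± 0.27 for Mpo (adjusted p = 0.953), -0.54 ± 0.36 for Prtn3 (adjusted p = 0.911), -0.77 ± 0.34 for Ncf1 (adjusted p = 0.561) and 0.21 ± 0.24 for Sfpi1 (adjusted p = 0.953). For Ncf1, 24.8 to 38.8 in PIR+ KO did not overlap 43.2 to 65.1 in PIR+ wt, and its fold change was called where only these 6 libraries were fitted (adjusted p = 0.038). Csf1r turned to -0.18 without replicate 3 of PIR+ KO.

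In 4 of the 10 genes the PIR+ genotypes did not overlap. Csf2rb and Csf3r were higher in PIR+ KO, 2 of 10 against 5.97% of all genes above 0, and Ncf1 and Cebpa were lower, 2 of 10 against 3.56%. Csf3r had the largest of these fold changes, 1.24 ± 0.37 without a filter, at an adjusted p of 0.241. The values for Csf2rb were 0.95 (adjusted p = 0.647) and for Cebpa -0.87 (adjusted p = 0.672). The authors' deposited table gives p-values from its own test of PIR+ KO against PIR+ wt, of 0.000139 for Ncf1, 0.0159 for Csf3r, 0.0441 for Prtn3 and 0.0869 to 0.52 for the other 6 genes it lists, and does not say whether they are adjusted.

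**Figure D2:**
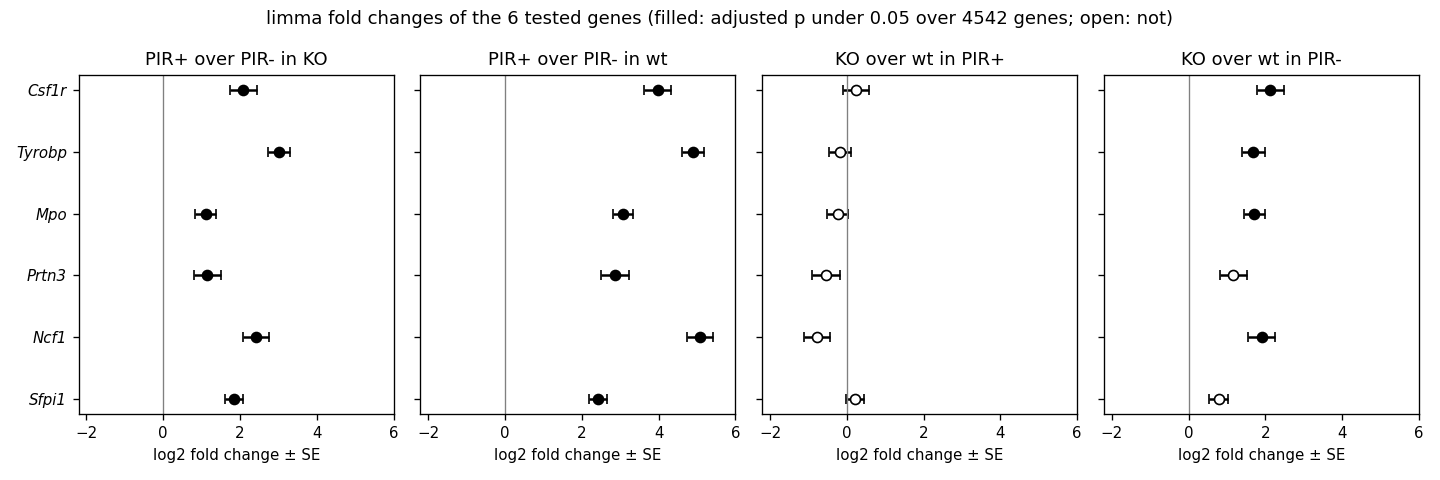
Log2 fold change (x axis, limma on log2(value + 1), whiskers 1 SE) of the 6 tested genes (y axis) in 4 comparisons; filled points have an adjusted p under 0.05 over all 4542 genes. The PIR+ over PIR- values lie between 1.11 and 5.08, those of KO over wt in PIR+ between -0.77 and 0.24, and those of KO over wt in PIR- between 0.78 and 2.13.

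In PIR- cells, 4 of the 6 tested members were higher in KO than in wt, where 1.08% of all tested genes were called higher, and none was lower. This comparison shares its PIR- libraries with those of PIR+ over PIR-, and the genes were chosen with such results known. Csf1r, Tyrobp, Prtn3 and Ncf1 could be tested only through their PIR+ levels, since fewer than 3 PIR- libraries reached 10. For Csf1r and Ncf1 no PIR- library did. The count and the median over the 6 are thus a description only. Csf1r was higher by 2.13 ± 0.35 (limma, adjusted p = 9.65e-06), Mpo by 1.71 ± 0.27 (adjusted p = 3.81e-06), Ncf1 by 1.90 ± 0.34 (adjusted p = 4.68e-05) and Tyrobp by 1.69 ± 0.29 (adjusted p = 2.48e-05). Prtn3 at 1.17 ± 0.36 (adjusted p = 0.0899) and Sfpi1 at 0.78 ± 0.24 (adjusted p = 0.0792) did not pass. The median over the 6 was 1.70, against 0.20 over all tested genes. After scaling the same count of 4 was called, against 1.03%, with a median of 1.56 against 0.01.

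Levels here are low, and the ratios are wide. The ratios that follow come from the molecules, adjusted for the value of a molecule in each library. Csf1r was 9.26-fold higher in PIR- KO than in PIR- wt (31 against 3 molecules, exact 95% interval 2.89 to 47.3). Ncf1 was 4.3-fold higher (24 against 5, 1.61 to 14.4) and Tyrobp 2.74-fold (55 against 18, 1.58 to 4.96), all for counting error only. Without a filter, 3 of 10 members were called higher, namely Csf1r, Mpo and Ncf1, against 0.198% of all genes, and Tyrobp had an adjusted p of 0.0954. Libraries of the genotypes did not overlap, with KO higher, for 6 of 10, namely Csf1r, Csf2rb, Mpo, Ncf1, Sfpi1 and Cebpa, against 7.89% of all genes above 0. For the members too low to test, the values without a filter were 1.17 for Csf2rb (adjusted p = 0.512), 0.86 for Csf3r (adjusted p = 0.572) and 0.92 for Cebpa (adjusted p = 0.592). Prtn3 was called without replicate 1 of PIR- wt (1.73, adjusted p = 0.00141) and without replicate 3 of PIR- KO (1.60, adjusted p = 0.0133), and Sfpi1 without replicate 1 of PIR- KO (0.91, adjusted p = 0.0397). Tyrobp was not called where only the PIR- groups were fitted (adjusted p = 0.132), nor Ncf1 with an added 5 (0.76, adjusted p = 0.0658).

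The libraries of both PIR- groups differed among themselves. In PIR-, replicate 1 of KO and replicates 2 and 3 of wt are the libraries labelled E12.5. The same libraries are the globin-rich ones of PIR- and those whose markers field goes against the title. Stage, globin and label match thus divide the PIR- libraries in the same way and are not separate checks. Replicate 1 of PIR- wt, labelled E14.5, was above replicates 2 and 3, labelled E12.5, for Tyrobp, Mpo, Prtn3 and Ncf1, and the 10 genes made up 0.0295% of its sum against 0.0108% and 0.0112% in those. Among the libraries labelled E12.5, a label that is no independent record, replicate 1 of PIR- KO was above both PIR- wt libraries for each of the 6 tested members. Tyrobp was 13.8 against 0.8 and 1.6 there. Among those labelled E14.5, both PIR- KO libraries were above the single PIR- wt library for Csf1r, Mpo, Ncf1 and Sfpi1. Tyrobp in these libraries was 11.5 and 6.6 against 8.0, and Prtn3 was 10.4 and 2.9 against 5.8. With the labelled stage as a term, 4 members were called, Csf1r at 2.19 (limma, adjusted p = 2.30e-06), Tyrobp at 1.62 (adjusted p = 5.15e-06), Mpo at 1.61 (adjusted p = 2.32e-06) and Ncf1 at 1.73 (adjusted p = 0.000133).

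**Figure D3:**
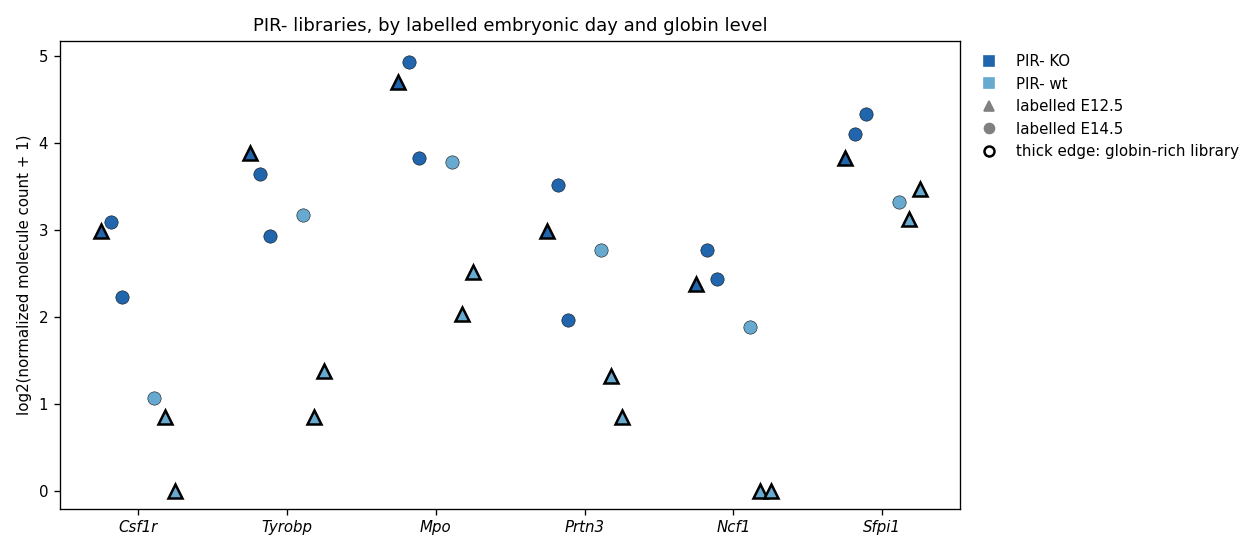
Level of the 6 tested genes, as log2(normalized molecule count + 1) on the y axis, in the 3 PIR- KO libraries (dark, left) and the 3 PIR- wt libraries (light, right); triangles are labelled E12.5, circles E14.5, and a thick edge marks a globin-rich library (Hba-a1, an alpha globin, at 359.6 or more). The KO library labelled E12.5 sits above both wt libraries labelled E12.5 for each gene. Tyrobp and Prtn3 show the overlap of the genotypes among those labelled E14.5.

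Red cell RNA and depth also differed among the PIR- libraries, depth without overlap between the genotypes. Of the 5 globin-rich libraries of the study, 1 was PIR- KO, with Hba-a1 at 547.3 against 14.4 and 18 in the other KO libraries, and 2 were PIR- wt, with 481.4 and 604.1 against 62.6. The summed erythroid list ran from 39.0 to 1363.3 in PIR- KO and from 172.4 to 1604.4 in PIR- wt, and 3 of its 4 tested genes, all globins, were called lower in KO, none of them after scaling. The estimated molecules were 302993 to 326039 per PIR- KO and 208195 to 292883 per PIR- wt library. Leaving out the 5 globin-rich libraries left 1 PIR- wt library, replicate 1, and 0 members were called, with Csf1r at 1.59 (limma, adjusted p = 0.0747), Ncf1 at 0.71 (adjusted p = 0.457), Mpo at 0.60 (adjusted p = 0.463) and Tyrobp at 0.12 (adjusted p = 0.894). In the 6 libraries with matching labels, which keep the same PIR- wt library and of PIR+ KO only replicate 3, 1 member was called, Csf1r. In these fits the single library is assumed to vary like the other groups. The part of red cell RNA and of depth in the result was not tested.

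The genotype effect itself was set against the PIR sign. The KO effect in PIR+ minus that in PIR- was -1.89 ± 0.49 for Csf1r (limma interaction, adjusted p = 0.0419), -1.87 ± 0.41 for Tyrobp (adjusted p = 0.00609), -1.95 ± 0.38 for Mpo (adjusted p = 0.00109) and -2.67 ± 0.47 for Ncf1 (adjusted p = 0.000366), so 4 of 6 tested members were called lower, where 0.462% of all tested genes were. Prtn3 at -1.72 ± 0.51 (adjusted p = 0.129) and Sfpi1 at -0.57 ± 0.33 (adjusted p = 0.91) did not pass. The median over the 6 was -1.88, against -0.13 over all tested genes. Csf1r, Tyrobp, Prtn3 and Ncf1 passed the filter only through PIR+ libraries, so this count and median are a description only. After scaling, Mpo (-1.88, adjusted p = 0.0426) and Ncf1 (-2.76, adjusted p = 0.0113) were called, Csf1r (adjusted p = 0.0699) and Tyrobp (adjusted p = 0.152) were not. Csf1r was called in 6 of 20 alternatives, Tyrobp in 16, Mpo in 17 and Ncf1 in 17. The call of Csf1r was lost on leaving out any 1 of PIR+ KO replicates 1 and 2, PIR+ wt replicates 1, 2 and 3, PIR- KO replicates 1 and 2 or PIR- wt replicate 3 (-1.97 to -1.57, adjusted p = 0.0693 to 0.307). Prtn3 was called without PIR- KO replicate 3 (-2.15, adjusted p = 0.0234) and without PIR- wt replicate 1 (-2.28, adjusted p = 0.00337). Without the globin-rich libraries 0 members were called, with Mpo at -0.70, Tyrobp at -0.11, Csf1r at -1.10 and Ncf1 at -1.19.

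Most other genes of the same pathways were too low to test. Of 8 other receptor genes none was tested. Among them Il6ra, a receptor chain of interleukin-6, was 6.87 ± 1 in PIR+ KO, 3.27 ± 1.24 in PIR+ wt, 0.967 ± 0.874 in PIR- KO and 0.633 ± 0.569 in PIR- wt libraries (SD, n = 3 each). It does not speak for the list. Ccr2 was 3 ± 1.4 in PIR+ KO and 9.87 ± 5.28 in PIR+ wt libraries, and Il1r1 was 0.167 ± 0.289 and 4.13 ± 1.55. Csf2ra was 2.83 ± 1.72 in PIR+ wt and 2.97 ± 0.833 in PIR- wt libraries. All of these were named after their values were seen. Of 13 other transcription factor genes 3 were tested, and 1 was higher in PIR+ wt, against 40.6% of all tested genes. This was Irf8, a factor of monocyte and dendritic cell development, at 1.05 ± 0.29 (limma, adjusted p = 0.00216, and 0.217 after scaling). After scaling, Cebpg (-0.24 ± 0.27 before scaling, adjusted p = 0.0122 after it) and Zeb2 (-0.42 ± 0.27 before scaling, adjusted p = 0.0052 after it) were called lower in PIR+ wt. None of the 3 was called in KO, on either scale, where Irf8 had 0.71 ± 0.29 (adjusted p = 0.0532).

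Of 17 other granule genes 3 were tested. In KO, 2 of them were higher in PIR+, and in wt all 3, on either scale. The shares of all tested genes were 22.5% in KO and 40.6% in wt, or 8.12% and 11.5% after scaling. Serpinb1a, an inhibitor of the neutrophil serine proteases, was 46.7, 34.3 and 52.5 in PIR+ KO, 48.2, 44.7 and 40.7 in PIR+ wt, 10.6, 6.3 and 7.3 in PIR- KO and 4.2, 1.5 and 2.3 in PIR- wt libraries. Its 3 PIR- KO libraries thus lay above its 3 PIR- wt libraries, with a fold change of 1.34 ± 0.28 (limma, adjusted p = 0.00114). It was the only call among these other granule genes for that comparison. Serpinb1a passed the filter on low values only through PIR+ libraries, so this call is a description only. PIR+ exceeded PIR- for Serpinb1a by 2.33 ± 0.28 in KO (adjusted p = 3.42e-11) and 3.70 ± 0.28 in wt (adjusted p = 2.22e-21), for Srgn, the core protein of the granule proteoglycan, by 1.11 ± 0.21 (adjusted p = 1.85e-05) and 1.62 ± 0.21 (adjusted p = 4.46e-10). Calr, an endoplasmic reticulum chaperone, was higher in PIR+ by 0.87 ± 0.18 in wt (adjusted p = 4.97e-05), and its value in KO was 0.28 ± 0.18 (adjusted p = 0.235).

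Of the 6 other oxidase genes, which form the same enzyme as Ncf1, 5 were tested. In KO all 5 were higher in PIR+, against 22.5% of all tested genes, and in wt 4, against 40.6%. After scaling these were 4 in KO, against 8.12%, and 3 in wt, against 11.5%. None was called between KO and wt in either subset. Cybb, the catalytic gp91phox subunit, was 10.9, 14.2 and 15.2 in PIR+ KO, 9.5, 11.2 and 10.8 in PIR+ wt, 1.6, 0.6 and 0 in PIR- KO and 0.5, 0 and 0 in PIR- wt libraries. The PIR signs did not overlap in Cybb, and the PIR- groups did, with 0.49 ± 0.48 for KO over wt (limma, adjusted p = 0.679). Cyba, the p22phox subunit, was higher in PIR+ by 1.16 ± 0.24 in KO (adjusted p = 0.000102) and by 1.37 ± 0.24 in wt (adjusted p = 2.34e-06). Rac2, the GTPase of the complex in blood cells, was higher by 0.97 ± 0.18 in KO (adjusted p = 7.02e-06) and 0.87 ± 0.18 in wt (adjusted p = 4.56e-05).

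Among 21 other ITAM adaptors and myeloid surface receptors 6 were tested. In KO, 4 were higher in PIR+, against 22.5% of all tested genes, and in wt 5, against 40.6%. After scaling these were 4 in KO, against 8.12%, and 4 in wt, against 11.5%, Myd88 being lost in wt (adjusted p = 0.135). Syk, the kinase that binds phosphorylated ITAMs, was -0.50 ± 0.22 in KO (adjusted p = 0.0855) and was called lower in PIR+ after scaling (adjusted p = 0.000207). Fcer1g, the other main ITAM adaptor of myeloid cells, was higher in PIR+ by 1.76 ± 0.46 in KO (limma, adjusted p = 0.0021) and by 2.59 ± 0.46 in wt (adjusted p = 2.55e-06). Itgb2, the beta chain of the leukocyte integrins, was higher by 2.51 ± 0.40 in KO (adjusted p = 4.03e-07) and 2.51 ± 0.40 in wt (adjusted p = 2.67e-07). Sirpa, the inhibitory receptor of CD47, was 7.9, 7.5 and 11 in PIR- KO and 2.7, 3.1 and 4.7 in PIR- wt libraries. It was the 1 call of this list for KO over wt in PIR- (1.13 ± 0.29, limma, adjusted p = 0.0189). Sirpa, too, passed the filter on low values only through PIR+ libraries, so this call is a description only. Of the non-member genes of these 5 lists none was called between KO and wt in PIR+, and after scaling Calr was called lower in KO (-0.33 before scaling, adjusted p = 0.02 after it).

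Markers of mature myeloid cells were low. Of 10 macrophage markers 9 were above 0 in some library, Vsig4 in none, and their sum was 2.4 to 3.6 in PIR+ KO, 2.0 to 3.7 in PIR+ wt, 0.5 to 1.2 in PIR- KO and 0.0 to 6.6 in PIR- wt libraries. Of 8 markers of maturing neutrophils 3 were above 0, with sums of at most 0.8 in any library. Mast cell and basophil markers summed to 4.8 to 15.2 in PIR+ KO, 3.9 to 5.7 in PIR+ wt, 0.0 to 5.8 in PIR- KO and 0.0 in all PIR- wt libraries, and megakaryocyte markers to 9.6 to 15.3, 3.7 to 15.1, 0.0 to 1.7 and 1.5 to 4.8 in the same groups. Hepatoblast markers summed to 6.4 to 22.4 in PIR+ KO, 5.7 to 13.8 in PIR+ wt, 11.7 to 18.1 in PIR- KO and 10.8 to 60.2 in PIR- wt libraries. B lineage markers ran the other way from the 10 genes between subsets, with sums of 12.8 to 24.4 in PIR+ KO, 25.0 to 35.5 in PIR+ wt, 633.4 to 973.5 in PIR- KO and 755.1 to 1013.6 in PIR- wt libraries. None of the 7 tested B lineage genes was called between KO and wt in PIR-. In PIR+, Cd79a (-2.33, limma, adjusted p = 1.61e-10) and Vpreb3 (-1.11, adjusted p = 0.0467, and 0.134 after scaling) were called lower in KO. Cd79a was 0, 1.0 and 0 in PIR+ KO and 8.9, 5.9 and 2.7 in PIR+ wt libraries. Vpreb3 was 1.2, 0 and 0 against 4.4, 0.7 and 1.4, which overlap. Cd79a was also called in the interaction (-2.09 ± 0.38, adjusted p = 0.000397), with the same sign as the members called there. Both genes passed the filter only through PIR- libraries, so these calls are a description only. The part of these cell types in the results was not tested.

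The genes most like each tested member were found by the root mean square difference of centred log2 values over the 12 libraries, where a low value means a like pattern. Among the members, Mpo and Prtn3 were closest to each other at 0.32, and Tyrobp and Ncf1 at 0.37, against medians over all tested genes of 1.13 for Mpo, 1.10 for Prtn3, 1.95 for Tyrobp and 1.87 for Ncf1. Outside the members, Csf1r was closest to Dok2 (0.48), Serpinb1a (0.51) and Hmga2 (0.53). Tyrobp was closest to Cd34 (0.50), Serpinb1a (0.63) and Rgs18 (0.68), and Ncf1 to Cd34 (0.51), Slc35d3 (0.61) and Serpinb1a (0.63). Mpo was closest to Flt3 (0.39), Hmga2 (0.46) and Gimap6 (0.47), and Prtn3 to Ifnar2 (0.46), Tnfrsf1a (0.49) and Itgal (0.49). Csf1r and Sfpi1 were farther from the other members, each with Mpo nearest, at 0.66 for Csf1r and 0.60 for Sfpi1. Outside the members Sfpi1 was closest to Ifi203 (0.16), Pip4k2a (0.20) and Laptm5 (0.21). Cd34, listed for Tyrobp and Ncf1, and Flt3, listed for Mpo, are surface markers of early progenitors, and averaged 182 in PIR+ KO, 153 in PIR+ wt, 19.8 in PIR- KO and 6.03 in PIR- wt libraries for Cd34 and 61.3, 73.7, 17.7 and 6.27 for Flt3.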

How the data were processed

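The authors deposited 1 expression table for the 12 libraries, with no stated unit, treated here as signal. Per the labels' protocols, cDNA molecules carried barcodes and spike-in RNA served for normalization, and low values lie on steps that differ between libraries, as molecule counts divided by a factor per library and rounded to 1 decimal would. Per the submitters' processing notes, TopHat2, DESeq2 and the genome build mm10 were used; the version of each tool is not given in the sources used here, nor is the counting tool. From 93.0% to 94.2% of low values in a library lay within 0.055 of a multiple of 1 step, so estimated molecules are approximate and whole counts were not recovered. The authors also deposited DESeq2 p-values, per the file headers, whose adjustment is not stated. Deposited value columns not mapped to a sample numbered 0.

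The method was limma 3.58.1 under R 4.3.3, fitted to log2(value + 1) by group mean with a prior that follows the trend. It took genes of at least 10 in at least 3 libraries. Benjamini-Hochberg adjustment was over all 4542 genes, with calls at an adjusted p under 0.05. The method was tested on simulated data for KO over wt in PIR+ only, so the PIR- and interaction comparisons were not covered. The added 1 makes fold changes of low genes smaller. Alternatives were median-of-ratios scaling, an added 0.1 or 5, no filter, a replicate block, fits of only the groups compared, leaving out each library, the 5 globin-rich libraries or the 6 whose markers field goes against the title, and the labelled stage, the last added after the values were seen. The labels do not say that replicate numbers pair the libraries, and the main fit did not use them. All members are named; other genes come from lists, naming called ones up to 6 a list, and from the 3 genes most like each tested member. The members and lists were chosen with earlier results of these data known. Locations are from GENCODE M21 on GRCm38, and plots used Python 3.11.15 and matplotlib 3.10.9.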

Additional observations from a re-analysis of the deposited data

Results flagged for a closer look

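For 4 of the 6 tested genes the difference between KO and wt was itself different in PIR+ and in PIR- cells by the limma interaction, where 0.462% of all tested genes were called in that direction. Csf1r changed by 0.24 ± 0.35 in PIR+ and by 2.13 ± 0.35 in PIR- cells (log2, SE), a difference of -1.89 (adjusted p = 0.0419). Tyrobp changed by -0.18 ± 0.29 in PIR+ and 1.69 ± 0.29 in PIR- cells, a difference of -1.87 (adjusted p = 0.00609). Mpo changed by -0.24 ± 0.27 in PIR+ and 1.71 ± 0.27 in PIR- cells, a difference of -1.95 (adjusted p = 0.00109). Ncf1 changed by -0.77 ± 0.34 in PIR+ and 1.90 ± 0.34 in PIR- cells, a difference of -2.67 (adjusted p = 0.000366). Of the changes within a subset, those in PIR- cells passed the test and those in PIR+ cells did not. Csf1r, Tyrobp and Ncf1 passed the filter on low values only through PIR+ libraries, so the count of 4 is a description only. None of the 4 differences was called without a filter on low values or without the globin-rich libraries, and that of Csf1r was called in 6 of 20 alternatives.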

How the results depend on the processing

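Of 624 recomputed values per gene, 572 kept their direction and their side of the threshold, 38 lost a call, 7 gained one and 7 changed sign, and in wt the 6 tested members stayed called for PIR+ over PIR- under all 21 alternatives, though without the globin-rich libraries Tyrobp had 3.48, Ncf1 3.65, Mpo 1.95 and Prtn3 1.67. Scaling turned the split of all called genes from 1023 higher and 135 lower to 369 and 341 in KO, and from 1846 and 169 to 524 and 501 in wt. For PIR+ over PIR- in KO, 1158 genes were called, 710 after scaling, 576 without the globin-rich libraries and 662 to 1418 with 1 library left out. In wt there were 2015, then 1025 after scaling, 700 without the globin-rich libraries, 1053 in the 6 with matching labels, whose title and markers field give 1 sign, and 1320 to 2083 with 1 left out. For KO over wt in PIR+ there were 41, 62 with the replicate block, 27 without the globin-rich libraries and 28 to 46 with 1 left out, and 1 member where only the 2 groups were fitted. For KO over wt in PIR- there were 59, 31 without a filter, 209 with the block, 35 without the globin-rich libraries, 105 in the 6 matching libraries, 28 from the 2 groups and 33 to 88 with 1 left out. Members called there were 4, 0 without the globin-rich libraries, 1 in the 6 matching libraries and 4 to 5 with 1 left out. The interaction had 26 genes, 3 without a filter, 6 without the globin-rich libraries, 10 in the 6 matching libraries and 15 to 33 with 1 left out; of the 4 members 2 passed after scaling, 0 without a filter, 0 without the globin-rich libraries, 0 in the 6 matching libraries and 3 to 5 with 1 left out. Signs turned for KO over wt in PIR+ for Csf1r (-0.18 to 0.49 with 1 left out), Tyrobp (0.00 without the globin-rich libraries, 0.39 in the 6 matching libraries) and Mpo (0.13 in those 6), in PIR- for Prtn3 (-0.03 in both of these), and for Tyrobp in the interaction (0.27 in those 6). Apart from fewer libraries, the cause was not tested. The labels give no shared source to same-numbered libraries, and whether they share one is not known. Correlations between same-numbered libraries of compared groups were -0.103 to 0.162. With the block, 1684 genes were called for PIR+ over PIR- in KO and 2409 in wt. Sfpi1 was then also called for KO over wt in PIR- (limma, adjusted p = 0.0107). Both subsets without globin-rich or mismatched libraries keep 1 PIR- wt library and leave out the same PIR- libraries. The 6 matching libraries also keep 1 PIR+ KO library, replicate 3, so these subsets say little on those groups. Values of 1 to 3 molecules limit Csf1r, Ncf1, Cebpa and Elane there.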
